A study of Homo sapiens with 16 samples.

Results

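The enzymes that make serine and pass its carbon into the folate cycle were followed for 45 h in MCF10HER2 cells treated with CP724,714, a compound that inhibits the kinase HER2. They are 10 genes, chosen by name from the pathway with earlier results of these data known: PHGDH, PSAT1, PSPH, SHMT1, SHMT2, MTHFD1, MTHFD1L, MTHFD2, GLDC and ALDH1L2. The array table names 18190 gene symbols, and 9 of the 10 genes have a probe in it. Of these, 8 had a probe that was detected (detection p under 0.05 on 3 or more arrays) and were tested. For each gene the detected probe with the highest mean signal was used.

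MCF10HER2 cells come from MCF10A, a nontransformed line of human breast epithelial cells, and carry a stable excess of the receptor HER2 (gene symbol ERBB2). All cultures grew in medium with EGF and without serum or insulin. Parallel cultures received CP724,714 at 1 µM and were harvested every 3 h, which gave 15 treated samples from 3 to 45 h and 1 untreated sample at 0 h. There is 1 array per time point and no replicate, so each error below reflects how far single arrays lay from a fitted curve or from the mean of neighbouring time points. The medium was renewed at the start of treatment and no untreated culture was followed over time, so the effects of the inhibitor, of fresh medium and of time in culture cannot be told apart.

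Serine is built from phosphoglycerate, an intermediate of glycolysis, in 3 steps. PHGDH oxidises it, PSAT1 adds an amino group taken from glutamate, and PSPH removes the phosphate. The serine hydroxymethyltransferases, SHMT1 in the cytosol and SHMT2 in mitochondria, then split serine into glycine and a single carbon that is loaded onto folate. The MTHFD enzymes interconvert the loaded folates and release formate, which feeds the synthesis of purines and thymidylate. The pathway is known for its activity in proliferating cells and in part of breast cancers.

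The promoters of PHGDH, PSAT1 and MTHFD2 are shown because PHGDH and PSAT1 had the largest falls of the set, while MTHFD2 had the largest fall in the linear fit among the enzymes downstream of serine. Each is the 250 bases before the annotated start, read 5′ to 3′ on the plus strand of GRCh38.p14 from RefSeq, with the letters CCAAT in capitals. PHGDH lies at chr1:119711684-119711933, PSAT1 at chr9:78296875-78297124 and MTHFD2 at chr2:74198365-74198614.
PHGDH: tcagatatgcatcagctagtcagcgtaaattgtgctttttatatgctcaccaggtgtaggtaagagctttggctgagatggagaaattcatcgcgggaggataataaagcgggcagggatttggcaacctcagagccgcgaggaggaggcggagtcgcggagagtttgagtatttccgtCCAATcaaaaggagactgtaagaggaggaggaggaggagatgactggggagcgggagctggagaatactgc
PSAT1: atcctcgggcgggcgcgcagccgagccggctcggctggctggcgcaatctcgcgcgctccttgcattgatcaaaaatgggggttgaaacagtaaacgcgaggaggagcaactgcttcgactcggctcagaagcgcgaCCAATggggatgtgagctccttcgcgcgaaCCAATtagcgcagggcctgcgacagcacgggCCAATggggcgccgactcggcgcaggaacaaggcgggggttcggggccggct
MTHFD2: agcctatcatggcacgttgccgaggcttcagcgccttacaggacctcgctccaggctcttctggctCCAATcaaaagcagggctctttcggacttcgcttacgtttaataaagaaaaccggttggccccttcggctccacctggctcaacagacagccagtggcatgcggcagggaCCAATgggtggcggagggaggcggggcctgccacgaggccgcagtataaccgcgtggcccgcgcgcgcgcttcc

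RefSeq entries were found for 7 of the 10 genes: PHGDH, PSAT1, SHMT1, MTHFD1, MTHFD1L, MTHFD2 and GLDC. The letters CCAAT, searched on both strands, occurred 1 time before PHGDH, 71 bases from the start, 3 times before PSAT1 (113, 83 and 52 bases from the start) and 2 times before MTHFD2 (184 and 74 bases). It was present in all 7 genes with an entry: 2 times before SHMT1, 1 time each before MTHFD1 and GLDC, and in 3 of the 4 entries of MTHFD1L. CCAAT was found in 32% of all 35116 promoter entries of this length. The C/EBP-ATF response element TGATGNAA, searched on both strands, occurred in 3.14% of all entries. Among the 7 genes only MTHFD1L held it, as TGATGCAA in 2 of its 4 entries, 129 and 90 bases before the start. The E-box CACGTG occurred in 6.34% of all entries, and was present 15 bases before the start of MTHFD1 and in the same 2 entries of MTHFD1L. These are matches of letters, chosen after the expression values were known, and say nothing of binding.

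The arrays held RNA of epithelial cells by their markers. Of 10 epithelial markers, 8 were tested and 6 were detected on every array, namely KRT5, KRT17, KRT8, KRT18, EPCAM and SFN, while KRT14 was detected on 1 array and LAMB3 on 2. CDH1 was detected on 15 arrays and TP63 on 14, both at a low signal (7.97 to 8.12 and 7.88 to 8.17 on the log2 scale). None of 4 fibroblast markers passed the detection rule, and of the endothelial markers CDH5 and VWF were detected on 0 arrays. Of the leukocyte markers CD3E was detected on 1 array, PTPRC on 7 and CD14 on all 16 (8.01 to 8.47 on the log2 scale), and the endothelial marker PECAM1 on all 16 (7.97 to 8.36). Some markers moved with time in the limma linear fit, over 45 h. KRT17 rose by 2.90 (SE 0.32, adjusted p = 5.33e-06) and KRT8 by 0.66 (adjusted p = 0.00700), SFN fell by 1.67 (SE 0.22, adjusted p = 4.14e-05), KRT5 fell by 0.47 (adjusted p = 0.00696), and CD14 rose by 0.31 (SE 0.08, adjusted p = 0.00935). Their part in the changes of the members was not tested. Between 10363 and 11436 of 20589 probes were detected per array. The arrays at 9 and 18 h were dimmer than the others (upper quartile intensity 397 and 418, against 553 to 804), and the background was 135.9 to 148.9 from 0 to 21 h and 164.5 to 173.9 from 24 to 45 h. The labels name no chip or batch.

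All 8 detected members were below their 0 h value at some time, and 7 of them were 1.7-fold or more below it on at least 1 array (9.47% of all tested probes were). The exception was MTHFD1. None was 1.7-fold or more above it (10.9% of all probes were). With another background correction (normexp from the signals alone), or without background correction, 6 members were 1.7-fold or more below 0 h. By a moderated F-test of a smooth curve in time in limma, 7 of the 8 depended on time at an adjusted p under 0.05, against 41.9% of all tested probes, and SHMT1 did not (adjusted p = 0.251). With single arrays left out the count was 5 to 7, and MTHFD1 (adjusted p = 0.0387) lost its call in 10 of 16 such fits. A straight line in hours fell in 4 of 8, PHGDH, PSAT1, PSPH and MTHFD2 (11.5% of all probes fell), and rose in 0 of 8, also at an unadjusted p under 0.05 (12.9% rose). The median linear change of the 8 was -0.68 on the log2 scale over 45 h, and that of all tested probes was -0.0022. These were bulk samples, in which fewer cells of a kind and less RNA per cell cannot be told apart.

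**Figure D1:**
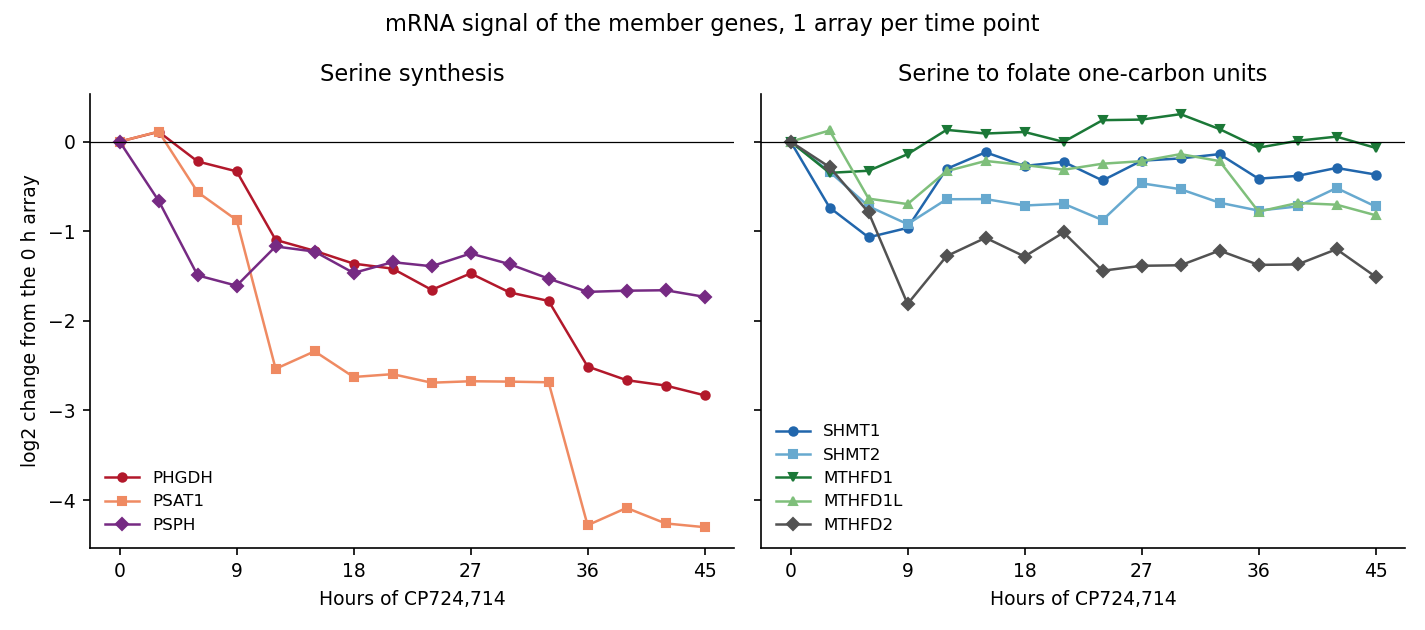
Change in log2 signal from the 0 h array (vertical axis) against hours of CP724,714 (horizontal axis) for the 3 serine synthesis genes (left) and the 5 detected genes downstream (right), with each point 1 array. PHGDH and PSAT1 went down in steps to -2.83 and -4.30 at 45 h. At 6 h PSPH and the downstream genes other than MTHFD1 were already at -0.64 to -1.49, and MTHFD1 was at -0.32.

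PHGDH, the enzyme of the entry step, fell slowly and in stages. Its log2 signal (probe ILMN_5800), in order of the arrays from 0 to 21 h, read 13.37, 13.48, 13.15, 13.04, 12.28, 12.15, 12.01 and 11.95. The arrays from 24 to 45 h read 11.72, 11.90, 11.69, 11.59, 10.86, 10.71, 10.65 and 10.54. The highest values were thus the first pair and the lowest the last 4, with 12 of the 15 treated arrays 1.7-fold or more below 0 h. At 9 h the gene was still 1.26-fold below its untreated level, and at 45 h it was 7.12-fold below it. The linear change was -2.94 over 45 h (SE 0.18, limma adjusted p = 1.47e-08).

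PSAT1, which transfers the amino group, had the largest fall of the set. In the same order its log2 signal (ILMN_17460) read 13.22, 13.34, 12.66, 12.35, 10.69, 10.88, 10.60 and 10.63 from 0 to 21 h. It then read 10.53, 10.55, 10.55 and 10.54 from 24 to 33 h, and 8.94, 9.14, 8.96 and 8.92 from 36 to 45 h. The course thus had 3 levels that did not overlap: the first 4 arrays, the 8 arrays from 12 to 33 h (10.53 to 10.88) and the last 4. Relative to 0 h the 9 h array stood at 54.5%, the 12 h array at 17.2% and the 45 h array at 5.1%. The linear change was -4.27 (SE 0.39, limma adjusted p = 8.74e-07). A second PSAT1 probe, ILMN_27293, was detected on 0 arrays (7.87 to 7.92) and gave no level.

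PSPH, the phosphatase of the last step, took another course. Its log2 signal (ILMN_14445) read 10.14, 9.48, 8.65, 8.53, 8.97, 8.91, 8.68 and 8.80 from 0 to 21 h. It read 8.75, 8.89, 8.77 and 8.61 from 24 to 33 h and 8.46, 8.48, 8.48 and 8.41 from 36 to 45 h. Nearly all of the fall lay in the first 6 h, when the signal went to 35.5% of the 0 h value, and the level at 45 h was 30.1%. Its linear change in limma was -0.97 (SE 0.24, adjusted p = 0.00655), and under median scaling of the arrays it was -0.70 (adjusted p = 0.0610). Without the 0 h array it was -0.61 (adjusted p = 0.0206). RefSeq lists a related pseudogene, PSPHP1, and because no probe sequences were used here, signal from its transcript cannot be told apart from that of PSPH.

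Among the genes downstream of serine, MTHFD2 changed most. The enzyme is the mitochondrial dehydrogenase and cyclohydrolase of loaded folates. Its log2 signal (ILMN_23782) read 12.66, 12.37, 11.87, 10.85, 11.38, 11.58, 11.38 and 11.64 from 0 to 21 h. From 24 to 45 h it lay between 11.15 and 11.46. The lowest value, 28.5% of the 0 h signal, was on the dim 9 h array, and at 21 h the signal was 49.5% and at 45 h 35.2%. The linear change was -0.86 (SE 0.28, limma adjusted p = 0.0324). This call was lost when the 0, 3, 6 or 45 h array was left out (adjusted p = 0.158, 0.101, 0.0530 and 0.0550). It was also lost under median scaling (-0.52, adjusted p = 0.304), with array weights (-0.58, adjusted p = 0.0579) and with the array background as a block (adjusted p = 0.300).

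SHMT2, the mitochondrial enzyme that splits serine, was lower on each of the 15 treated arrays than at 0 h. Its log2 signal (ILMN_19915) read 13.06, 12.73, 12.34, 12.14 and 12.42 from 0 to 12 h, and from 15 to 45 h it lay between 12.19 and 12.60. The level was 52.8% of the 0 h signal at 9 h and 60.6% at 45 h. The gene depended on time (limma adjusted p = 0.0239) but not without the 0 h array (0.606) or the 3 h array (0.0767), under median scaling (0.335) or with array weights (0.393).

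SHMT1, its cytosolic counterpart, was lowest at 3 to 9 h. Its log2 signal (ILMN_17710) read 10.93, 10.19, 9.86, 9.96, 10.62 and 10.81 from 0 to 15 h, and lay between 10.49 and 10.79 afterwards. That is 47.7% of the 0 h signal at 6 h and 92.1% at 15 h. A second, dimmer probe of the gene, ILMN_18055, read 8.22, 8.06, 8.03, 8.11, 8.18 and 8.21 over the same arrays, so both were at their lowest there at 6 h. From 24 to 45 h, however, the dimmer probe read 8.05 to 8.17, below its 0 h value on every array. Its difference from 0-3 to 6-9 h, a comparison described further on, was -0.07 and did not pass in limma (adjusted p = 0.299), and the one from 6-9 to 12-21 h was 0.16 (adjusted p = 0.00711).

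MTHFD1L, which makes formate in mitochondria, had a dip and a second fall. Its log2 signal (ILMN_20988) read 10.46, 10.58, 9.82 and 9.76 from 0 to 9 h, lay between 10.13 and 10.32 from 12 to 33 h, and read 9.68, 9.77, 9.75 and 9.64 from 36 to 45 h. The last 4 arrays were all below the 8 before them. Under median scaling the limma time dependence of the gene was lost (adjusted p = 0.0947).

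MTHFD1, the cytosolic enzyme with 3 activities, stayed within 1.7-fold of its 0 h value. Its log2 signal (ILMN_10026) read 8.59, 8.25, 8.27 and 8.45 from 0 to 9 h, reached a highest value of 8.90 at 30 h and ended at 8.52. It was above the 0 h value on 9 of the 15 treated arrays. The probe was dim, and the size of its changes depended on the background correction. The range of its fitted curve was 0.40, and 0.68 with normexp from the signals alone. GLDC, which cleaves glycine in mitochondria, was detected on 0 arrays (probe ILMN_23395). ALDH1L2, a mitochondrial dehydrogenase of formyl folate, has no probe in the table.

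The question of timing was whether serine synthesis and the downstream folate steps fell together. The genes did not divide along that line. PSPH, SHMT2 and MTHFD2 covered most of their fall in the first 9 h, whereas PHGDH and PSAT1 covered most of theirs later, although PSAT1 also fell early. MTHFD1L did both: it was low at 9 h, came back in part from 12 to 33 h and fell again at 36 h. As a description, the mid-fall time is the hour at which the interpolated log2 signal first reached the midpoint between its value at 0 h and its mean at 39, 42 and 45 h, taken for members that fell by 0.5 or more between these. It was 2.93 h for SHMT2, 3.66 h for PSPH, 4.94 h for MTHFD1L, 5.34 h for MTHFD2, 11.2 h for PSAT1 and 18.4 h for PHGDH. Leaving out 1 array at a time gave ranges of 2.72 to 3.20 h for SHMT2, 3.39 to 4.15 h for PSPH, 3.47 to 6.60 h for MTHFD1L and 4.55 to 5.58 h for MTHFD2. The corresponding ranges were 10.7 to 14.1 h for PSAT1 and 17.7 to 19.5 h for PHGDH. The values of the early 4 lie within the 3 h between arrays, so their order is not resolved, while the ranges of PSAT1 and PHGDH overlap with no other. Median scaling moved SHMT2 to 1.10 h, MTHFD1L to 1.64 h, PSPH to 1.97 h and MTHFD2 to 2.15 h, and PSAT1 to 10.9 h. The time depends on the size of the whole fall and is not the time at which a fall began. MTHFD1L crossed its midpoint more than once, for the last time at 33.8 h. SHMT1 and MTHFD1 fell by less than 0.5 and have no such time. The difference in timing between genes has no test here, since each gene gives 1 course.

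**Figure D2:**
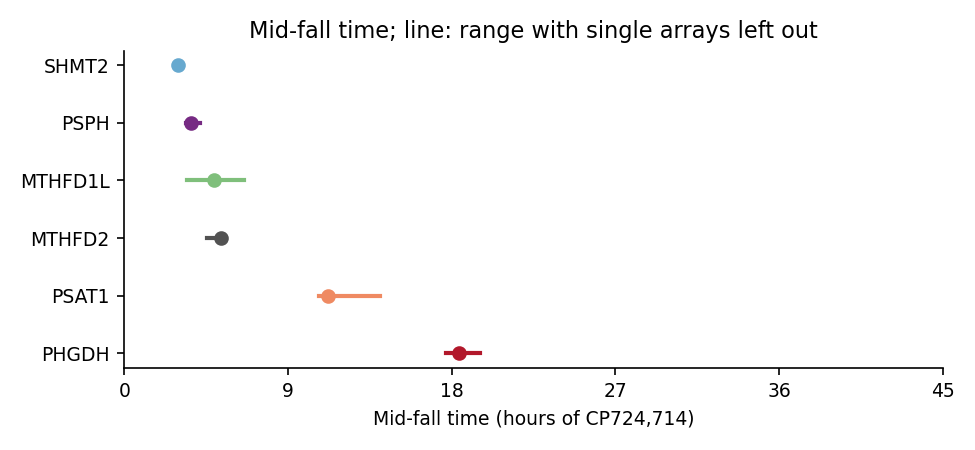
Mid-fall time (horizontal axis, hours of CP724,714) of the 6 members that fell by 0.5 or more on the log2 scale, 1 row per gene. Points are the values from all 16 arrays and lines span the values with single arrays left out. In the plot 4 genes lie at 5.34 h or earlier, PSAT1 at 11.2 h and PHGDH at 18.4 h. MTHFD1L is shown by its first crossing of the midpoint, and its last was at 33.8 h.

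By 9 h PHGDH had covered 12.1% of its later fall and PSAT1 20.8%. The shares at the same hour were 95.4% for PSPH and 94.6% for MTHFD1L. SHMT2 and MTHFD2 were then below their final level, at 141% and 133% of their fall. Taken over the mean of 12 to 21 h, MTHFD1L was back at 38.0%, against 77.3% for PSPH, 85.5% for MTHFD2 and 103% for SHMT2.

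To set an error beside this early part, the means of successive sets of arrays were compared in limma. The arrays of a set are neighbouring time points and not replicates, and any change within the set counts as error. The split at 3 h was chosen after the values had been seen. From 0-3 h to 6-9 h, 6 of 8 members fell (13.0% of all tested probes fell) and 0 rose (12.9% rose). PSPH fell by 1.22 on the log2 scale (SE 0.15, adjusted p = 1.33e-05) and MTHFD2 fell by 1.16 (SE 0.22, adjusted p = 0.000608). PSAT1 fell by 0.78 (SE 0.13) and MTHFD1L fell by 0.73 (SE 0.10), with adjusted p = 0.000223 and 5.68e-05.

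SHMT2 and SHMT1 each fell by 0.65 in the same comparison (SE 0.14 and 0.17, limma adjusted p = 0.00159 and 0.00809). Under median scaling neither was past the threshold (adjusted p = 0.0634 and 0.161), nor with array weights (0.129 and 0.307), and without the 0 h array the difference of SHMT1 was -0.28 (adjusted p = 0.161). PHGDH differed by -0.33 (SE 0.13, adjusted p = 0.0716) and MTHFD1 by -0.06 (SE 0.10, adjusted p = 0.724). The difference of PHGDH was close to the threshold. It passed with normexp from the signals alone (-0.32, limma adjusted p = 0.0489) and without background correction (-0.32, adjusted p = 0.0468), but not under median scaling (-0.41, adjusted p = 0.373). The 9 h array was dim, and without it the same 6 genes passed, with MTHFD2 at -0.65 (adjusted p = 0.0126) and PSPH at -1.17 (adjusted p = 0.000402). Over the 8 members the median of this difference was -0.69, and over all tested probes 0.00035.

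From 6-9 h to 12-21 h the members parted. PHGDH fell by 1.00 (SE 0.11, limma adjusted p = 5.30e-06) and PSAT1 fell by 1.80 (SE 0.11, adjusted p = 6.20e-09), 2 of 8 against 17.8% of all probes. SHMT1 rose by 0.79 (SE 0.15, adjusted p = 0.000457), MTHFD1L by 0.39 (SE 0.09, adjusted p = 0.00282) and MTHFD1 by 0.31 (SE 0.09, adjusted p = 0.00952), 3 of 8 against 16.9%. Without the 6 h array MTHFD1 did not pass (0.22, adjusted p = 0.153), nor with array weights (adjusted p = 0.0503). Median scaling gave 1.27 for SHMT1, 0.86 for MTHFD1L and -0.63 for PHGDH, all past the threshold, and the mean of both SHMT1 probes 0.47. PSPH, SHMT2 and MTHFD2 differed by 0.25, 0.15 and 0.14 and did not pass (adjusted p = 0.156, 0.353 and 0.602). Without the 6 h array MTHFD2 was past the threshold (0.65, adjusted p = 0.00531), and without the 9 h array its difference was -0.37 (adjusted p = 0.0663). For PSPH it was past the threshold without the 0 h or the 3 h array (adjusted p = 0.0297 and 0.0319).

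The level reached at 12-21 h was lower than that at 0-3 h in 6 of 8 members (22.2% of all probes). The difference was -2.58 for PSAT1 (SE 0.11), -1.33 for PHGDH (SE 0.11), -1.02 for MTHFD2 (SE 0.19), -0.97 for PSPH (SE 0.13), -0.50 for SHMT2 (SE 0.12) and -0.34 for MTHFD1L (SE 0.09), with a largest limma adjusted p of 0.00496. For MTHFD1L the direction depended on the scaling, since median scaling gave 0.09 (adjusted p = 0.764), and it did not pass without the 3 h array (-0.28, adjusted p = 0.0658). SHMT2 also did not pass under median scaling (-0.20, adjusted p = 0.555). SHMT1 was not past the threshold (0.14, SE 0.15, adjusted p = 0.478), and its value rested on single early arrays: it was 0.51 without the 0 h array (adjusted p = 0.00292), -0.23 without the 3 h array (0.190) and 0.44 with array weights (0.0149). MTHFD1 was higher by 0.26 (SE 0.09, adjusted p = 0.0248; 21.2% of all probes were higher), but not without the 3 h array (0.08, adjusted p = 0.558).

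**Figure D3:**
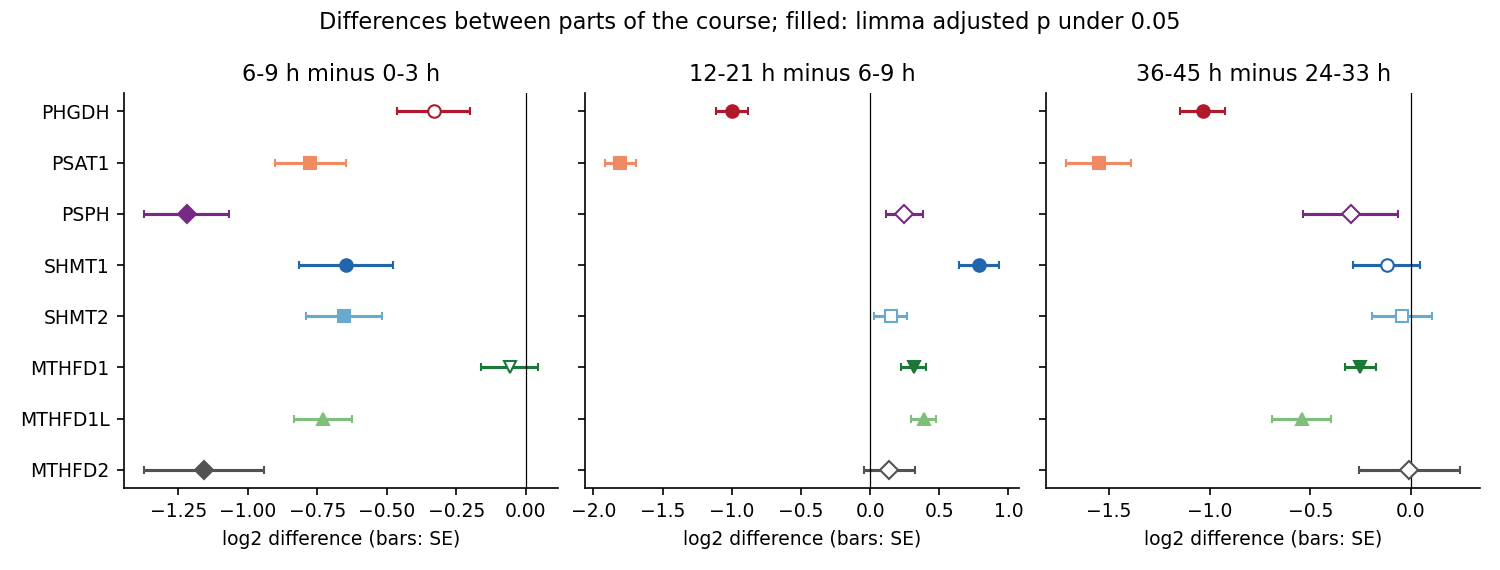
Difference in log2 signal (horizontal axes, each with its own scale) between 3 pairs of successive sets of arrays for the 8 tested members (rows); bars are standard errors and filled symbols have a limma adjusted p under 0.05. In the left panel 6 symbols are filled and lie below 0. In the middle panel the filled symbols of PHGDH and PSAT1 lie below 0 and those of SHMT1, MTHFD1 and MTHFD1L above it. In the right panel the filled symbols are those of PHGDH, PSAT1, MTHFD1 and MTHFD1L, and all 8 symbols lie below 0.

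Later in the course PHGDH and PSAT1 fell again. Between 24-33 h and 36-45 h PSAT1 fell by 1.55 (SE 0.16, limma adjusted p = 1.28e-05) and PHGDH fell by 1.03 (SE 0.11, adjusted p = 1.67e-05). MTHFD1L fell by 0.54 (SE 0.15, adjusted p = 0.0216) and MTHFD1 fell by 0.25 (SE 0.07, adjusted p = 0.0363). Together these are 4 of 8 members, against 5.84% of all tested probes, and 0 of 8 rose (6.40% rose). The calls of MTHFD1L and MTHFD1 were lost under median scaling (adjusted p = 0.109 and 0.147), MTHFD1L also without the 30, 36 or 45 h array (0.0596, 0.0547 and 0.0665), and MTHFD1 without the 24, 27, 30, 36, 39, 42 or 45 h array (up to 0.104). PSPH, SHMT1, SHMT2 and MTHFD2 differed by -0.30, -0.12, -0.05 and -0.01 and did not pass (adjusted p = 0.481, 0.719, 0.893 and 0.992).

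Between 12-21 h and 24-33 h no member passed in either direction in limma (0.114% of all probes were lower and 0.0568% higher). At an unadjusted p under 0.05 PHGDH alone was lower (-0.37, SE 0.11, unadjusted p = 0.00364, adjusted p = 0.247). This is the comparison across the change in array background, so that background and time cannot be told apart in it, while the comparisons on either side lie within 1 background.

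The early and the late fall were compared within each gene, as the difference of the change from 24-33 to 36-45 h and the change from 0-9 to 12-21 h. PHGDH fell by 1.16 in the early step (SE 0.11) and fell by 1.03 in the late one, a difference of 0.13 (SE 0.16, limma adjusted p = 0.573). PSAT1 fell by 2.19 in the early step (SE 0.16), 0.64 more than in the late one (SE 0.23, adjusted p = 0.0405). MTHFD1 had a difference of -0.54 (SE 0.11, adjusted p = 0.000990) and MTHFD1L of -0.56 (SE 0.21, adjusted p = 0.0454). These 3 of 8 compare with 31.7% of all probes. The calls of PSAT1 and MTHFD1L were lost in 13 and 14 of the 16 fits with 1 array left out. Under median scaling the difference of PSAT1 was 0.27 (adjusted p = 0.577) and that of MTHFD1L -1.01 (adjusted p = 0.00938). The value of SHMT1, -0.58 (adjusted p = 0.0667), was then -1.04 and past the threshold (adjusted p = 0.0235). In the early step itself PHGDH and PSAT1 were lower (2 of 8, with 18.0% of all probes lower). MTHFD1 rose by 0.29 (SE 0.07, adjusted p = 0.00682) and SHMT1 by 0.46 (SE 0.17, adjusted p = 0.0378), 2 of 8 with 17.5% higher. The 0-9 h set holds the dip of SHMT1 at 3 to 9 h, and the gene was below its 0 h value on each of the 15 treated arrays. Without the dim 9 h array MTHFD2 and PSPH were also lower in this step (-0.80 and -0.59, limma adjusted p = 0.000244 and 0.0330). MTHFD2 then also differed between the steps (0.79, adjusted p = 0.00353). With another background correction (normexp from the signals alone) the rise of MTHFD1 was 0.51 (adjusted p = 0.00435), and under median scaling that of SHMT1 was 0.92 (adjusted p = 0.00426). The SHMT1 call was lost when any 1 of the 7 arrays from 3 to 21 h was left out (adjusted p up to 0.132).

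The largest changes of PHGDH and PSAT1 between successive arrays lay in the same intervals. Between 9 and 12 h PSAT1 changed by -1.66 and PHGDH by -0.76, and between 33 and 36 h they changed by -1.60 and -0.73. At the first of these 14 of 12321 tested probes fell as much as PSAT1 and 184 as much as PHGDH, and at the second 5 and 76 did. Over the other intervals from 12 h on neither gene changed by more than 0.29 in either direction. PHGDH also fell by smaller amounts over most of the other intervals, with the largest of these changes -0.33 from 3 to 6 h. PSPH changed by -0.66 from 0 to 3 h and by -0.83 from 3 to 6 h, and MTHFD2 by -1.02 from 6 to 9 h.

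These intervals were also large steps for the arrays as a whole. The root mean square change over all tested probes was 0.312 from 0 to 3 h, 0.295 to 6 h, 0.235 to 9 h, 0.325 to 12 h and 0.206 from 33 to 36 h, and 0.0905 to 0.174 over the others. Each interval rests on 1 array at either end, and the part of such array-wide steps in the falls of PHGDH and PSAT1 was not tested. Both genes stayed on a lower level afterwards, since all 8 arrays from 12 to 33 h lay below the first 4 and all 4 arrays from 36 h lay below those 8.

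**Figure D4:**
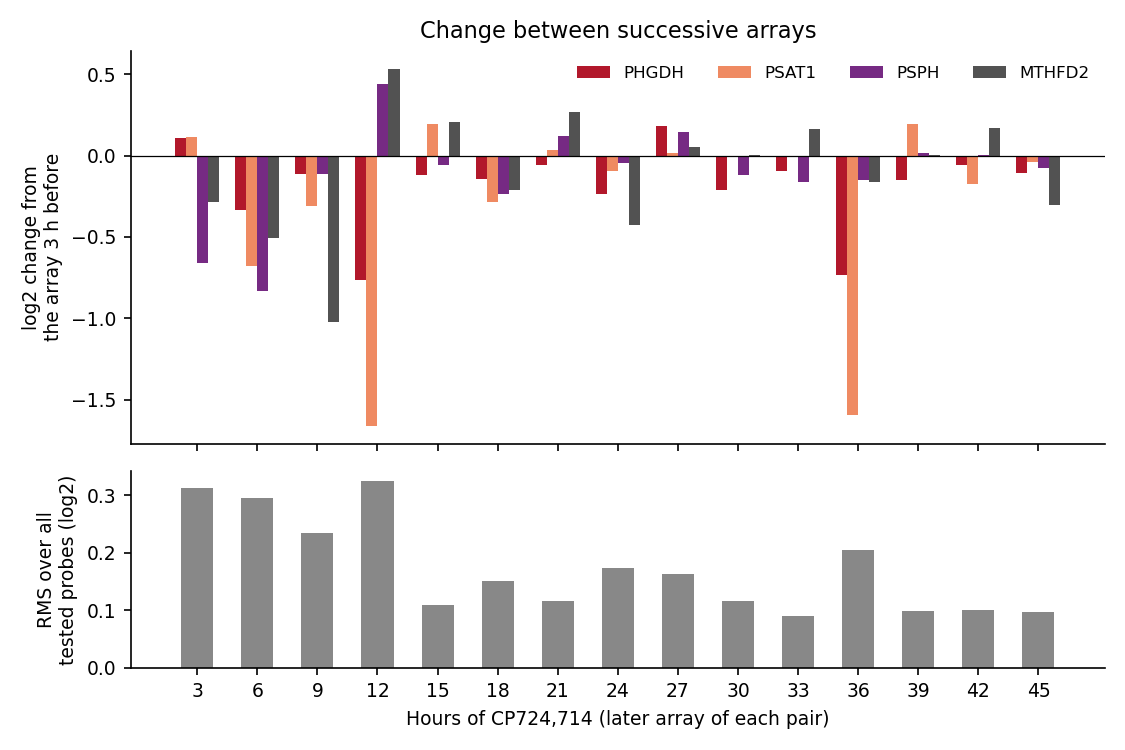
Upper panel, change in log2 signal from the array 3 h before (vertical axis) for PHGDH, PSAT1, PSPH and MTHFD2 at each time point (horizontal axis, hours of CP724,714); lower panel, the root mean square of the same change over all 12321 tested probes. The largest bars are those of PSAT1 at 12 h (-1.66) and 36 h (-1.60), and the array-wide change is 0.325 and 0.206 there.

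Within the arrays of 1 background PHGDH and PSAT1 fell in both spans in the linear fit, given here as the log2 change over the 21 h of a span. PHGDH changed by -1.75 from 0 to 21 h (limma adjusted p = 0.00738) and by -1.51 from 24 to 45 h (0.000104). PSAT1 changed by -3.24 in the earlier span (adjusted p = 0.00811) and by -2.09 in the later one (0.000297). PSPH fell by 0.46 in the later span (adjusted p = 0.00210), and its value of -1.02 in the earlier one did not pass (0.0988). MTHFD2 passed in neither, with -1.03 from 0 to 21 h (adjusted p = 0.123) and 0.03 from 24 to 45 h (0.900). The later span also held falls of MTHFD1L (-0.72, adjusted p = 0.00305) and MTHFD1 (-0.35, adjusted p = 0.0149).

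Courses were also compared by shape, as the root mean square difference between mean-centred log2 signals over the 16 arrays. Among the pairs of tested members the closest was SHMT1 with MTHFD1 (0.20), followed by SHMT2 with MTHFD1L (0.23), PSPH with MTHFD2 (0.24) and PSPH with SHMT2 (0.27). PHGDH was nearer to PSAT1 (0.52) than to PSPH (0.71), and PSAT1 was 1.14 from PSPH. Of 11565 genes, the 5 nearest to PSAT1 were ASNS, the asparagine synthetase (0.44), KRT6B (0.49), PHGDH (0.52), UPP1 (0.53) and SLC7A5 (0.61). The 5 nearest to PHGDH were RPS15 (0.27), SERPINA3 (0.31), UPP1 (0.33), KHDRBS3 (0.34) and PHLDA1 (0.37), so PSAT1 was not among them. For PSPH they were DDB2 (0.13), AP5S1 (0.15, C20orf29 in the table), TNFRSF10B (0.16), TSEN15 (0.16, C1orf19 in the table) and GPT2 (0.16). For MTHFD2 they were SLTM (0.16), SLC25A25 (0.17), UBP1 (0.18), NINJ1 (0.18) and BIRC3 (0.18). Small differences are easier to reach for genes that change little, and all genes share the same 16 arrays, so these values are a description only.

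The genes around the pathway did not fall as a body. Of 69 genes in 8 lists, 57 were tested, 11 fell and 6 rose in the linear fit (11.5% and 12.9% of all probes), and their median linear change was 0.0030. Serine and glycine transporters had the largest share of falls, 4 of 8 tested with 0 risen. SLC1A5, a carrier of neutral amino acids, had a linear change of -1.35 over 45 h (SE 0.41, limma adjusted p = 0.0217), and SLC6A9, a glycine transporter, one of -1.19 (SE 0.28, adjusted p = 0.00446). The other falls, named after their values were seen, were those of SLC38A1 (-0.69) and SLC1A4 (-0.09, detected on 3 arrays). None of the 9 tested genes of folate uptake and handling and none of the 6 tested folate users passed in the linear fit.

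Of 7 tested genes of methionine metabolism and transsulfuration, 2 fell and 2 rose. CBS, which joins serine to homocysteine, had a linear change of -1.29 (SE 0.24, limma adjusted p = 0.000634) and CTH, the next enzyme, one of -0.15 with detection on 13 arrays (SE 0.05, adjusted p = 0.0261). AHCYL1 and MAT2B rose by 0.66 and 0.34 (adjusted p = 0.0138 and 0.0226). Of 12 tested genes that use serine or glycine, GARS1, the glycyl-tRNA synthetase, fell by 1.12 (SE 0.22, adjusted p = 0.00115) and SDSL fell by 0.32 (adjusted p = 0.000860), while SERINC2 rose by 0.84 and PTDSS2 by 0.37 (adjusted p = 0.0121 and 0.0342).

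In lower glycolysis, which supplies and competes for phosphoglycerate, PGAM1 fell by 1.03 (SE 0.19, limma adjusted p = 0.000635), GAPDH fell by 0.64 (SE 0.09, adjusted p = 8.41e-05) and BPGM rose by 0.32 (adjusted p = 0.00964), of 7 tested genes. The partners of GLDC in glycine cleavage, AMT and GCSH, were detected on 0 arrays, and DLD, which also serves other dehydrogenase complexes, rose by 0.54 (SE 0.15, adjusted p = 0.0142). Of 7 tested regulators, TRIB3, a pseudokinase induced by amino acid stress, fell by 3.04 (SE 0.50, adjusted p = 0.000268) and 0 rose.

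**Figure D5:**
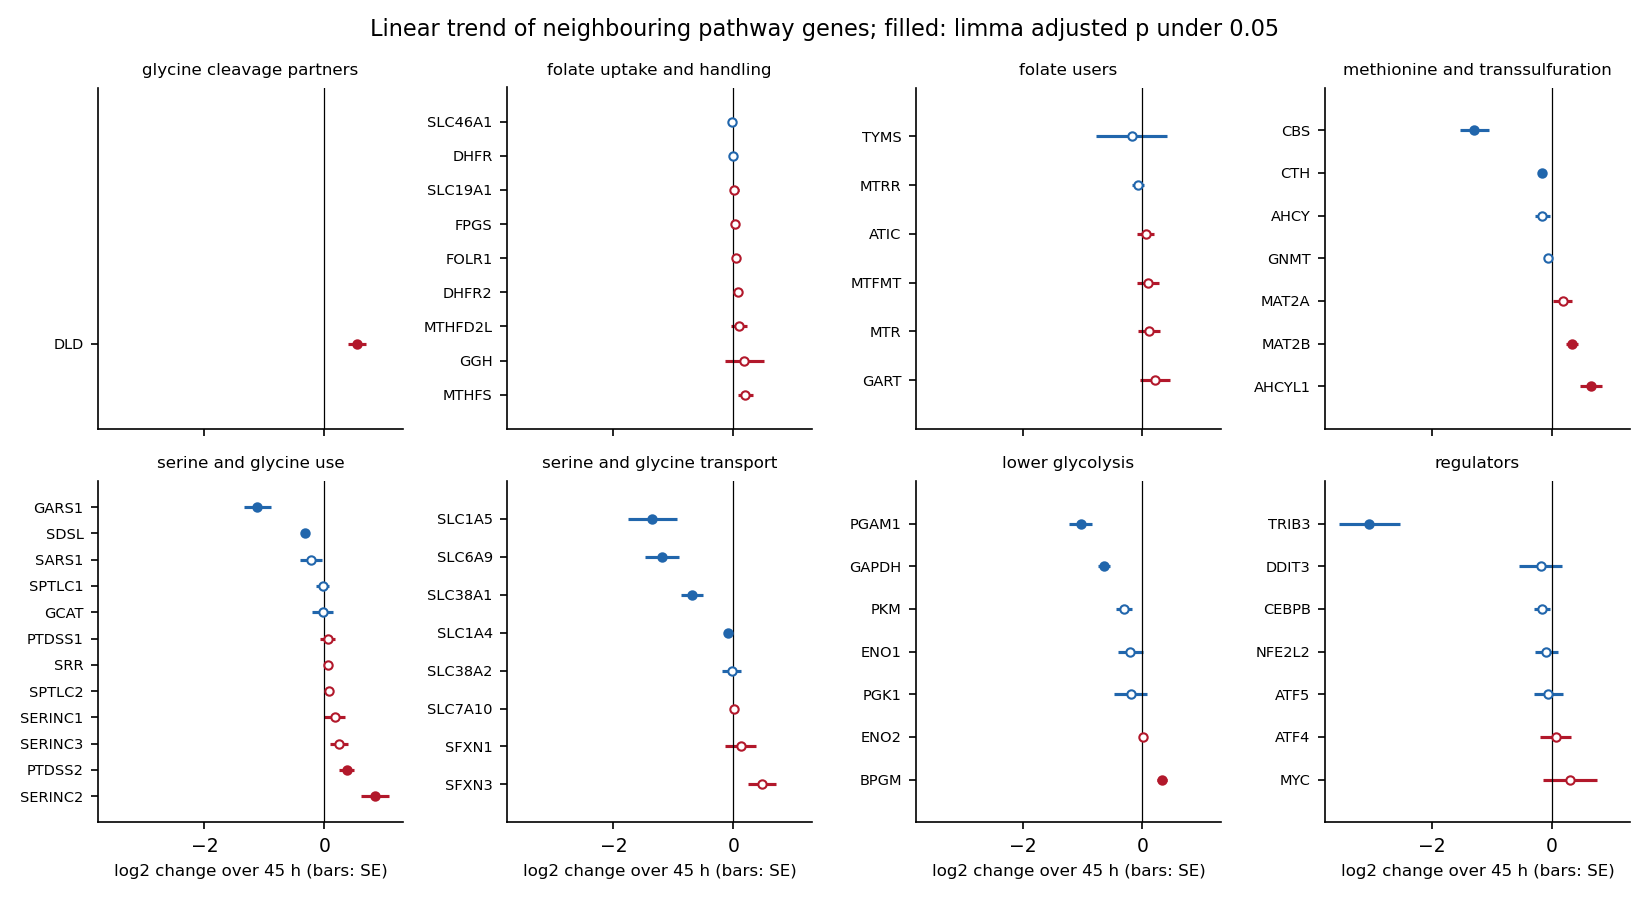
Linear change in log2 signal over 45 h (horizontal axes) of the 57 tested neighbouring genes, 1 panel per list; bars are standard errors, red marks values above 0 and blue below 0, and filled symbols have a limma adjusted p under 0.05. Filled blue symbols number 4 among serine and glycine transporters and 0 among folate uptake and handling and among folate users.

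The early comparison, from 0-3 h to 6-9 h, was also made for these genes, of which 15 of 57 fell and 8 rose (13.0% and 12.9% of all probes). Some are named here after their values were seen. ATF4, a transcription factor of the amino acid response, fell by 0.80 (SE 0.14, limma adjusted p = 0.000298) and DDIT3, another factor of that response, fell by 1.39 (SE 0.26, adjusted p = 0.000652), while TRIB3 fell by 2.51 (SE 0.18, adjusted p = 3.40e-08). Of the 7 tested regulators 4 were lower, with NFE2L2 (-0.56, adjusted p = 0.0166), and MYC was higher (1.28, adjusted p = 0.0397). The MYC signal was 12.34 at 0 h and 12.39 at 9 h, so this was not a rise over the untreated array. MYC did not depend on time in the limma F-test of a smooth curve (adjusted p = 0.627). In the early comparison ATF5 and CEBPB did not pass (adjusted p = 0.245 and 0.954). In the linear fit over 45 h neither ATF4 (0.07, adjusted p = 0.882) nor DDIT3 (-0.18, adjusted p = 0.768) passed. SFXN1 and SFXN3, of a family that carries serine into mitochondria, rose by 0.82 and 0.94 (adjusted p = 0.00217 and 0.000471). From 6-9 h to 12-21 h, 12 of 57 rose and 9 fell (16.9% and 17.8% of all probes). Among these TYMS, the thymidylate synthase, rose by 1.81 (SE 0.31, adjusted p = 0.000227) and GGH by 1.13 (SE 0.20, adjusted p = 0.000299).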

How the data were processed

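Gene expression was measured on 16 Illumina human Ref-8 v2 beadchip arrays, 1 per time point. The authors deposited probe intensities that had not been normalized between arrays, and for every intensity a detection p-value against negative controls, and per the methods compared arrays after quantile normalization. An aligner or genome build does not apply to these values. Labels gave each sample its time, and 0 per-sample columns were left unused.

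Background correction, quantile normalization and the log2 step were done by neqc (limma 3.58.1, R 4.3.3), which inferred the controls from the detection p-values and added an offset of 16. Changes of dim probes are small on this scale. GLDC, detected on 0 arrays, read 7.86 to 7.94, and the fitted range of MTHFD1 was 0.40, against 0.58 without background correction. Of 20589 probes, the 12321 whose detection p was under 0.05 on at least 3 arrays were tested. Adjusted p-values are Benjamini-Hochberg over these, from linear models with eBayes (trend = TRUE): an F-test of a natural cubic spline (4 degrees of freedom), a line in hours (given as the change over 45 h), and contrasts between sets of successive arrays. Arrays of a set are not replicates. Precision is limited by the number of arrays, and the spread may be technical.

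The enzymes, gene lists and tests were chosen with earlier results of these data known. Named were all 10 enzymes, per neighbour list the 2 largest falls and 2 largest rises of the linear fit past 0.05, the 5 nearest courses, and genes said to be chosen later. Symbols follow the table unless RefSeq (GRCh38.p14) gives a newer one. The scripts were tested on simulated data. Alternatives covered background correction, normalization, detection filter, probe choice, array weights, single arrays, array background and the definitions of sets and mid-fall time.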

Additional observations from a re-analysis of the deposited data

How the results depend on the processing

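Most results kept their direction and their side of the threshold. The linear falls of PHGDH and PSAT1 and their falls in the early and late steps held under every alternative except 1, chosen after seeing the data: with the 4 sets of arrays as a block, which leaves only change within the sets, 0 members fell (PHGDH adjusted p = 0.575). Leaving out single arrays gave 3 to 5 members with a linear fall, 2 to 4 lower and 1 to 2 higher in the early step, 2 to 4 lower in the late step and 1 to 3 whose early and late steps differed. It gave 5 to 6 lower from 0-3 to 6-9 h, 3 to 4 higher from 6-9 to 12-21 h, and 0 to 2 higher and 5 to 6 lower from 0-3 to 12-21 h. Time dependence held in 5 to 7. Median scaling shifted the median of all probes by at most 0.063, but some members by more. In the early step SHMT1 went from 0.46 to 0.92, MTHFD1L from 0.02 to 0.48 and PHGDH from -1.16 to -0.83. In the late step PHGDH went from -1.03 to -1.01. This scaling left 2 members with a linear fall and 2 lower in the late step, and turned the difference of MTHFD1L from 0-3 to 12-21 h to 0.093. It moved mid-fall times to 1.10 h for SHMT2, 1.64 h for MTHFD1L, 1.97 h for PSPH and 2.15 h for MTHFD2. The last crossing of the midpoint instead of the first put MTHFD1L at 33.8 h. With the array background as a block, or within 0 to 21 h, 2 members had a linear fall; within 24 to 45 h the change of MTHFD1 was -0.35 and that of MTHFD2 0.028. Without a detection filter 1 member was higher in the early step and 1 differed between steps. Without the 9 and 18 h arrays, or with sets of 3 arrays, 1 was higher in the early step, and with sets of 3 arrays 2 were lower in the late one. Array weights gave 1 member lower from 12-21 to 24-33 h and 2 higher from 0-3 to 12-21 h. With the median of the 16 arrays as the baseline in place of 0 h, 3 members were 1.7-fold lower and 4 were 1.7-fold higher at some time. The causes were not tested. No paired analysis was possible because the labels give 1 sample for each time. Signals near the background limit what can be said of GLDC, CTH, MTHFD1, the later values of PSPH and the second SHMT1 probe.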
